A study of Macaca mulatta with 30 samples.

Results

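Voltage-gated calcium and sodium channel genes were followed in 30 samples of cortical area 32 of male rhesus macaques that had drunk ethanol by choice. The genes were taken by symbol: the pore subunits CACNA1, the alpha2delta subunits CACNA2D, the beta subunits CACNB, the gamma family CACNG, the sodium channel subunits SCN and the sodium leak channel NALCN. Of 15521 genes in the table, 30 had such a symbol, and 26 of these had a value of 10 or more normalized reads in at least 6 libraries; 12935 genes of the table passed the same minimum. Area 32 is a part of the medial prefrontal cortex. Each library came from 1 animal. The study asked how long-term ethanol intake relates to the transcriptome of this area. All animals, the low drinkers included, learned to drink an ethanol solution (4%, w/v) and then had it freely available for over 12 months, so none of the libraries comes from an animal without ethanol. The categories follow intake. Very heavy drinkers (VHD, 6 animals) took more than 3 g/kg a day on average and passed 4 g/kg on at least 10% of days. Heavy drinkers (HD, 7 animals) reached 3 g/kg on at least 20% of days. Binge drinkers (BD, 7 animals) reached 2 g/kg on at least 55% of days with a blood level of 80 mg/dl at least yearly. Low drinkers (LD, 10 animals) met none of these. The animals belonged to cohorts 4 (9 animals), 5 (8), 7b (5) and 7a (8), whose mean ages at the end of open access were 9.98, 7.15, 7.18 and 5.70 years. VHD animals came only from cohorts 5 and 7a, and LD animals only from cohorts 4, 7b and 7a. Between cohort 4, the oldest, and cohort 7a, the youngest, cohort and age cannot be told apart, while cohorts 5 and 7b were of nearly the same mean age.

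Voltage-gated sodium channels carry the inward current of the action potential, and voltage-gated calcium channels couple membrane voltage to transmitter release, dendritic signalling and gene regulation. Each channel is built around 1 large pore protein, with auxiliary subunits that set its surface level and gating. NALCN is a related pore that passes a sodium leak at rest. In cortical neurons SCN2A and SCN8A encode the main sodium pores of excitatory cells and axons, and SCN1A is prominent in fast-spiking inhibitory cells.

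Depth was 4.39 to 13.99 M reads per library (M for mega, reads of all genes summed). The shallowest library, LD replicate 3, also stood apart on the channel genes, as described with the components below. Markers of neurons were present in all libraries, with summed levels of 1321 to 1890 normalized reads per kb for excitatory neurons, and no marker list was at 0. Bulk tissue was measured, so fewer cells of a type and less RNA per cell cannot be told apart.

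The sodium pores were led by SCN2A. Levels between genes are given per kb of listed exons, as normalized reads per kb, and as medians over the 30 libraries. SCN2A stood at 1281, above 97.7% of all genes tested, followed by SCN8A at 512, SCN1A at 372 and SCN3A at 226. SCN9A at 38.7 and SCN7A at 31.7, better known from sensory neurons and from glia, were far lower. Of the summed level of SCN1A, SCN2A, SCN3A and SCN8A per kb, SCN2A made up 54.3% (range 50.3 to 56.6%), SCN8A 21.4%, SCN1A 15.3% and SCN3A 9.6% at the median. The skeletal muscle pore SCN4A and the sensory pores SCN10A and SCN11A were below the minimum, with medians of 1.93, 0 and 1.86 normalized reads. SCN10A was at 0 in 22 libraries.

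Among those found in the table, SCN3B led the sodium channel beta subunits, single-pass proteins that bind the pore and act as adhesion molecules. It stood at 795 per kb and SCN2B at 518. NALCN, at 497 per kb over all its listed exons, stood close to SCN8A. Its level was uneven, with 4 exons at 1501 per kb and 30 others at 368, as described below.

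Among the calcium pores found in the table CACNA1A, the P/Q-type pore of presynaptic terminals, stood highest at 394 per kb. The T-type pores CACNA1G and CACNA1H, which open near rest and support burst firing, stood at 161 and 125. CACNA1S, the skeletal muscle pore, was the lowest member at 1.12 per kb and reached 10 normalized reads in 9 libraries. No other calcium pore was among the 30 symbols found, so the others are not ranked here. CACNA2D3, an auxiliary subunit that aids trafficking of the pore, stood at 397 and was the only alpha2delta subunit among the symbols found. The 4 beta subunits, which bind the pore inside the cell, were close to one another: CACNB3 at 400, CACNB1 at 360, CACNB4 at 350 and CACNB2 at 307, each taking 21.3 to 28.3% of their sum. The neighbours in that order overlapped from library to library.

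The gamma family, most of which are transmembrane regulators of AMPA receptors (TARPs) and not channel subunits, was led among the genes found by CACNG3. CACNG3 stood at 389 per kb, CACNG7 at 161, CACNG2 (stargazin) at 103.2, CACNG4 at 57.0, CACNG6 at 16.5 and CACNG5 at 10.9. CACNG3 took 53.3% of the summed level of CACNG2, CACNG3, CACNG4 and CACNG7. CACNG5 reached 10 normalized reads in 15 libraries, and CACNG1, the skeletal muscle gamma subunit, in none. Over the 26 members the median level was 308 per kb, beside 102 over all genes tested. The members' median SD over libraries of log2(normalized reads + 1) was 0.220, beside 0.216 over all genes. As the members stood higher at the median, and were not set against genes of like level, their variability is not ranked here. SCN8A (SD 0.10), SCN2B (0.11) and SCN2A (0.12) were the steadiest, and CACNA1S (0.98) and CACNG5 (0.94) the most scattered.

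**Figure D1:**
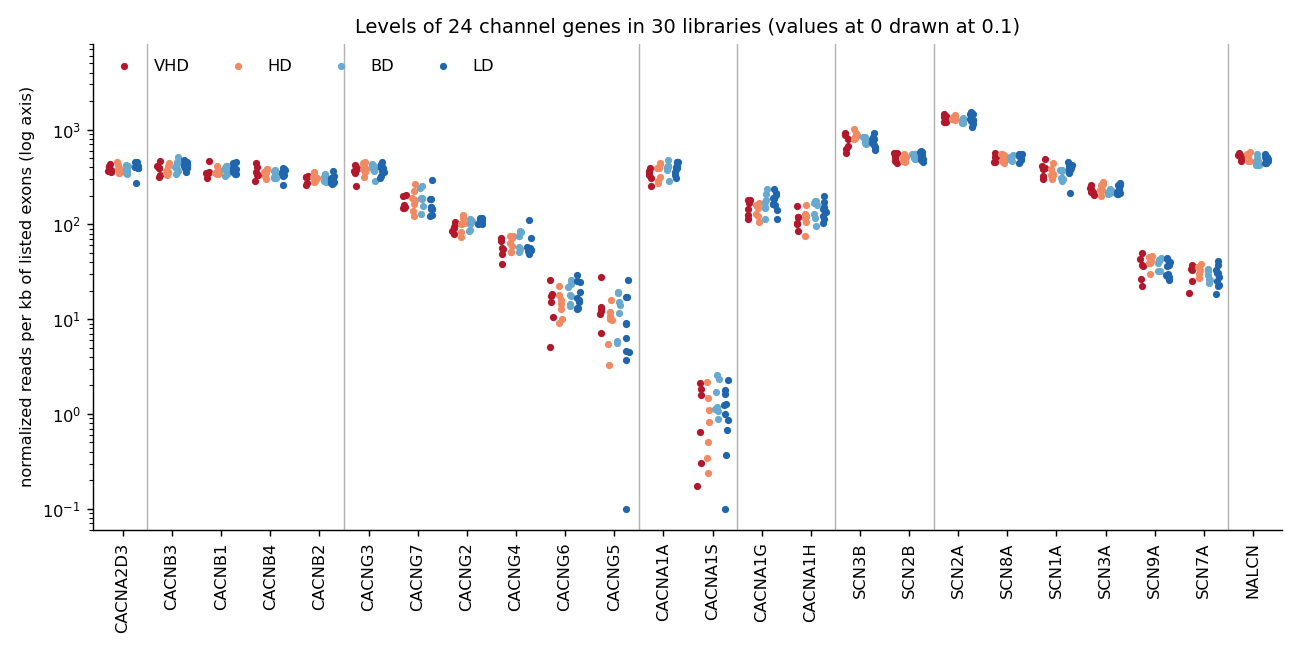
Level of 24 of the channel genes in 30 libraries, in normalized reads per kb of listed exons on a log axis, with genes grouped by role and libraries coloured by category (VHD, HD, BD, LD from left to right); values at 0 are drawn at 0.1. SCN2A has the highest level and CACNA1S the lowest, and the categories overlap for every gene shown.

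The categories were then compared, with cohort in the model, by limma on log2(normalized reads + 1) across the 12935 genes. A gene was called at a Benjamini-Hochberg adjusted p under 0.05. No gene was called in any of VHD, HD or BD against LD, or 0% of the genes tested, and no member was called; edgeR on the recovered reads also called none. Estimates are differences on the log2 scale, with standard errors. At an unadjusted p under 0.05, 0 of 26 members passed in VHD against LD beside 3.5% of all genes (1.76% higher and 1.74% lower). In HD against LD 5 of 26 passed beside 12.5%, with 2 members higher beside 5.87% and 3 lower beside 6.68% of all genes. In BD against LD 0 of 26 passed beside 3.05%, with 1.56% higher and 1.48% lower, and 3 of 26 passed without LD replicate 3. Over the test of any category, 1 of 26 passed beside 5.62%. Over the trend from LD to VHD 1 of 26 passed beside 6.18%, with none higher beside 3.12% and 1 lower beside 3.06%. No member had groups that did not overlap, beside 0.0232% of all genes in VHD against LD, 0.0155% in HD against LD and 0% in BD against LD. The members had their smallest adjusted p at 0.317, in HD against LD.

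The medians of the members' estimates were -0.03 in VHD, -0.02 in HD and -0.00 in BD against LD, and those of all genes were -0.00, 0.00 and 0.00. Of 26 members, 9 lay above 0 in VHD, 12 in HD and 13 in BD. For 16 of 26 members in VHD, 16 in HD and 22 in BD the 95% interval of the difference from LD lay inside 0.5 on the log2 scale in both directions, and for 24 of 26 in each it lay inside 1. The interval was narrowest for SCN8A, which differed by -0.02 in VHD against LD (95% interval -0.15 to 0.10). SCN2A differed by 0.06 (-0.09 to 0.21).

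The smallest p-value of a member in HD was that of SCN9A. It had a lowest, median and highest of 216, 297 and 334 normalized reads in HD animals, against 188, 239 and 316 in LD animals. Of 7 HD libraries, 6 lay above the LD mean, and the groups overlapped. The difference was 0.35 ± 0.13 (SE, p = 0.0105, adjusted p = 0.317). SCN2A, far more abundant, had 11194, 11848 and 12444 normalized reads in HD animals, against 9375, 11077 and 13402 in LD animals, a difference of 0.07 ± 0.06 (p = 0.25).

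Among the beta subunits SCN3B had 4657, 5070 and 6063 normalized reads in HD animals, against 3633, 4299 and 5494 in LD animals. All 7 HD libraries lay above the LD mean, at 0.23 ± 0.10 (p = 0.0199, adjusted p = 0.343). It was the 1 member below p = 0.05 over any category (p = 0.0448, adjusted p = 0.861). That count of 1 was 0 without any 1 of 15 libraries and with edgeR, and up to 3 without others. The groups overlapped.

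Among calcium channel genes CACNA1G had 855, 1209 and 1379 normalized reads in HD animals, against 919, 1425 and 1941 in LD animals. All 7 HD libraries lay below the LD mean, at -0.35 ± 0.14 (p = 0.0186, adjusted p = 0.339). It was the 1 member below p = 0.05 in the trend, at -0.12 ± 0.05 per step from LD to BD, HD and VHD (p = 0.0407, adjusted p = 0.745), and its unadjusted p was under 0.05 in 20 of 30 fits that left out 1 library. In VHD animals it had 918, 1287 and 1478 normalized reads and differed from LD by -0.29 ± 0.17 (p = 0.0952, adjusted p = 0.948). CACNA1A had 2181, 2971 and 3400 in VHD animals, against 2657, 3437 and 3945 in LD animals, a difference of -0.17 ± 0.13 (p = 0.211). CACNA2D3 had 1283, 1407 and 1568 in VHD animals, against 974, 1458 and 1637 in LD animals. CACNB3 had 972, 1212 and 1448 in VHD animals, against 1096, 1311 and 1458 in LD animals. CACNG3 had 495, 739 and 831 in VHD animals, against 603, 774 and 883 in LD animals. These 3, the highest of their roles, overlapped between the groups and differed by -0.08, -0.14 and -0.05 in VHD against LD. NALCN had 3187, 3624 and 3949 normalized reads in VHD animals, against 3067, 3304 and 3794 in LD animals, at 0.11 ± 0.08 (p = 0.162). CACNG5 had the estimate farthest from 0 in VHD, 1.06 ± 0.57 against LD (p = 0.0718, adjusted p = 0.948), on a median of 10 reads per library, and CACNA1S the widest error, at -0.46 ± 0.63. Cohort 7a was the 1 cohort with both VHD (2) and LD (3) animals. Within it, CACNA1G was -0.25 (p = 0.0503) and CACNA1H -0.46 (p = 0.0757) in VHD against LD, and 0 of 26 members had an unadjusted p under 0.05. In cohort 4 alone, with 4 BD and 4 LD animals, 0 of 26 had. The share of all genes with such a p in these within-cohort fits is not given here, so neither count is read as a result about the members.

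**Figure D2:**
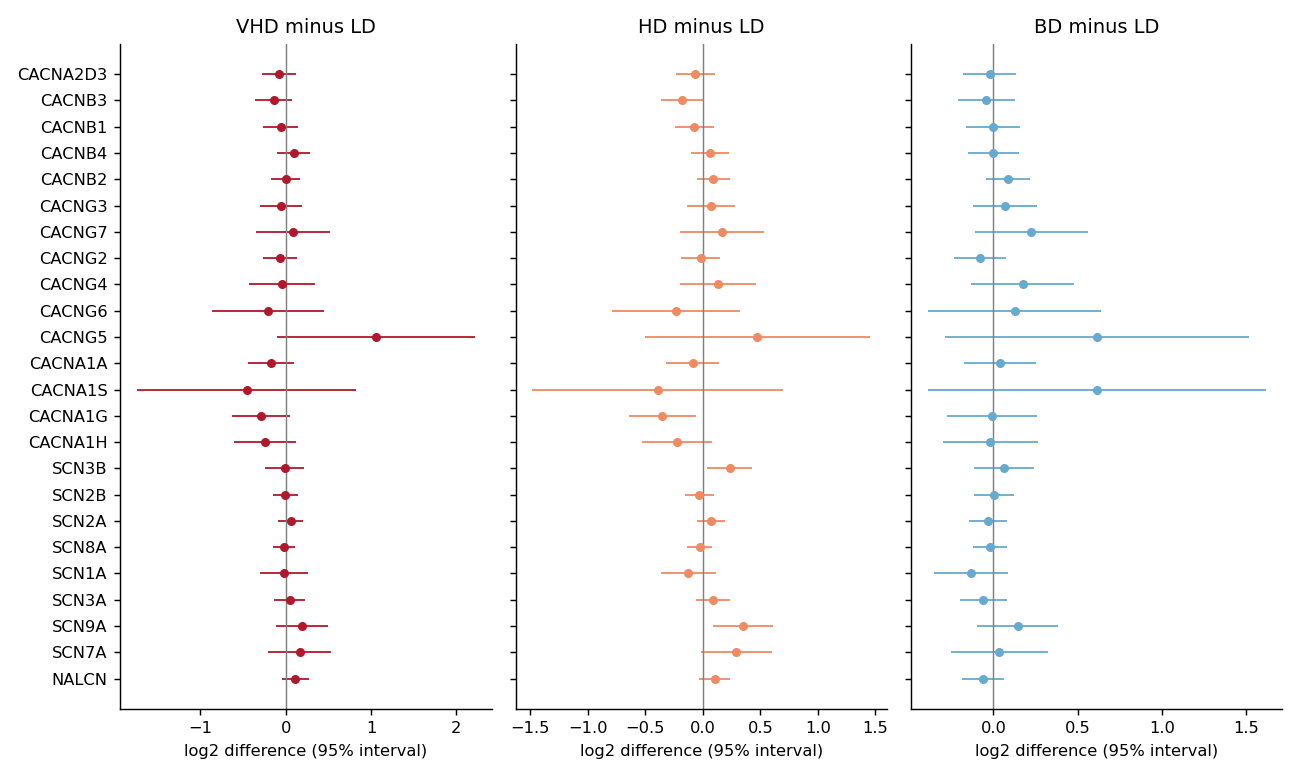
Difference from LD of 24 of the channel genes in VHD, HD and BD animals (3 panels, left to right), on the log2 scale with the 95% interval of the limma fit and cohort in the model. In HD, CACNA1G lies below 0 and SCN3B and SCN9A above it without reaching an adjusted p under 0.05.

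Some marker lists leaned to 1 side of 0, and the directions of the other lists are not given here. In VHD against LD all 10 mural and fibroblast markers lay below 0, with a median of -0.29. Of 10 oligodendrocyte markers, 9 lay above 0, with a median of 0.22. None in these lists had an unadjusted p under 0.05, beside 3.5% of all genes. The summed oligodendrocyte level ran from 1293 to 3592 normalized reads per kb in VHD and from 1238 to 3418 in LD. With the first component of all marker genes as a covariate, 0 of 26 members had an unadjusted p under 0.05 in VHD against LD. Of the 10 mural and fibroblast markers, 9 lay below 0 in HD against LD, with a median of -0.68. An unadjusted p under 0.05 was reached by 6 of the 10, beside 12.5% of all genes. The summed mural and fibroblast level ran from 1028 to 2538 normalized reads per kb in HD and from 1112 to 2732 in LD. All 10 oligodendrocyte markers lay below 0 in HD, with a median of -0.25. With the first component of 76 marker genes as a covariate the HD estimates were -0.34 for CACNA1G, 0.23 for SCN3B and 0.34 for SCN9A. With 4 sets of 8 consecutive library numbers in the model, CACNA1G was -0.28 and SCN3B 0.14 in HD, at p = 0.0944 and 0.110. The categories were unevenly spread over these sets. Numbers 1 to 8 held 4 HD and 1 LD libraries, and numbers 17 to 24 held 1 HD and 5 LD libraries.

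Genes of the pathway were read from lists of partners: 13 sodium channel partners, 17 calcium channel partners and 2 of the NALCN complex could be tested. None was called in any comparison. In HD against LD, 4 of 13 sodium channel partners had an unadjusted p under 0.05, all above 0, among them CNTN1 (0.20 ± 0.07), a contactin that binds beta subunits, NRCAM (0.14 ± 0.06), an adhesion protein of the initial segment, and FGF12 (0.18 ± 0.08), a homologous factor that binds sodium pores. Of 17 calcium channel partners, 4 had such a p in HD: SYT1 (0.15 ± 0.06), the calcium sensor of release, CASK (0.16 ± 0.07) and AKAP5 (0.18 ± 0.09), both scaffolds, and RRAD (-0.51 ± 0.22), a GTPase that inhibits calcium channels. The share of all genes with such a p was 12.5% in HD, with 5.87% higher and 6.68% lower. In BD against LD RRAD was the 1 partner of that kind (-0.43 ± 0.20), beside 3.05% of all genes. In VHD against LD there was none, beside 3.5% of all genes.

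Cohort was examined next, as the cohorts differ in age. No gene was called over the 3 cohort terms, and none in cohort 4 against cohort 7a, the oldest against the youngest (0% of genes in both). At an unadjusted p under 0.05, 3 of 26 members passed over any cohort beside 8.04% of all genes, and 7 of 26 in cohort 4 against 7a beside 9.15%. Of the 7, 1 was higher and 6 lower in cohort 4, beside 4.94% and 4.21% of all genes. No member had groups that did not overlap, beside 0.0387% of all genes. The smallest adjusted p of a member was 0.179.

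SCN9A had a lowest, median and highest of 217, 307 and 328 normalized reads in cohort 4, against 163, 213 and 334 in cohort 7a. Of 9 cohort 4 libraries, 8 lay above the cohort 7a mean, at 0.45 ± 0.12 (p = 0.000857, adjusted p = 0.179). SCN8A ran the other way, with 5105, 5479 and 6219 normalized reads in cohort 4 and 5646, 6146 and 6429 in cohort 7a. It differed by -0.14 ± 0.05 (p = 0.00852, adjusted p = 0.351), and 8 of 9 libraries lay below the cohort 7a mean. SCN1A had 1802, 2819 and 3448 in cohort 4, against 2736, 3240 and 4103 in cohort 7a, at -0.25 ± 0.11 (p = 0.0317, adjusted p = 0.497). Without LD replicate 3 the SCN1A difference was -0.15.

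CACNA1G (-0.30 ± 0.14, p = 0.0349) and CACNB2 (-0.14 ± 0.07, p = 0.0429) were also among the 7. CACNA1G had 925, 1289 and 1941 normalized reads in cohort 4, against 1249, 1431 and 1941 in cohort 7a. CACNB2, the beta subunit known also from heart, had 1107, 1216 and 1350 in cohort 4, against 1150, 1336 and 1526 in cohort 7a, and its difference was -0.09 without LD replicate 2. The ranges overlapped in each. Cohort 7b, with a mean age of 7.18 years at the end, was also set against cohort 7a. There CACNA1G differed by -0.36 ± 0.15 and SCN9A by 0.33 ± 0.14. SCN1A differed by -0.15 ± 0.13, SCN8A by -0.01 ± 0.06 and CACNB2 by -0.01 ± 0.08. The part of age in these differences was not tested. Over any cohort the members below p = 0.05 were SCN9A (p = 0.00787), CACNG2 (p = 0.0126) and SCN8A (p = 0.0136), with adjusted p from 0.416 to 0.478. CACNG2 was lowest in cohort 5, with 331, 383 and 475 normalized reads, against 423, 470 and 559 in cohort 7a, at -0.27 ± 0.08. In cohort 7b, of nearly the same mean age as cohort 5, it differed from cohort 7a by -0.01 ± 0.09. Of 13 sodium channel partners, FGF12 (-0.19 ± 0.08), NRCAM (-0.12 ± 0.05) and FGF14 (-0.14 ± 0.07) had an unadjusted p under 0.05 in cohort 4 against 7a, all below 0. Of 17 calcium channel partners none had. The share of all genes with such a p was 9.15%, with 4.21% lower.

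**Figure D3:**
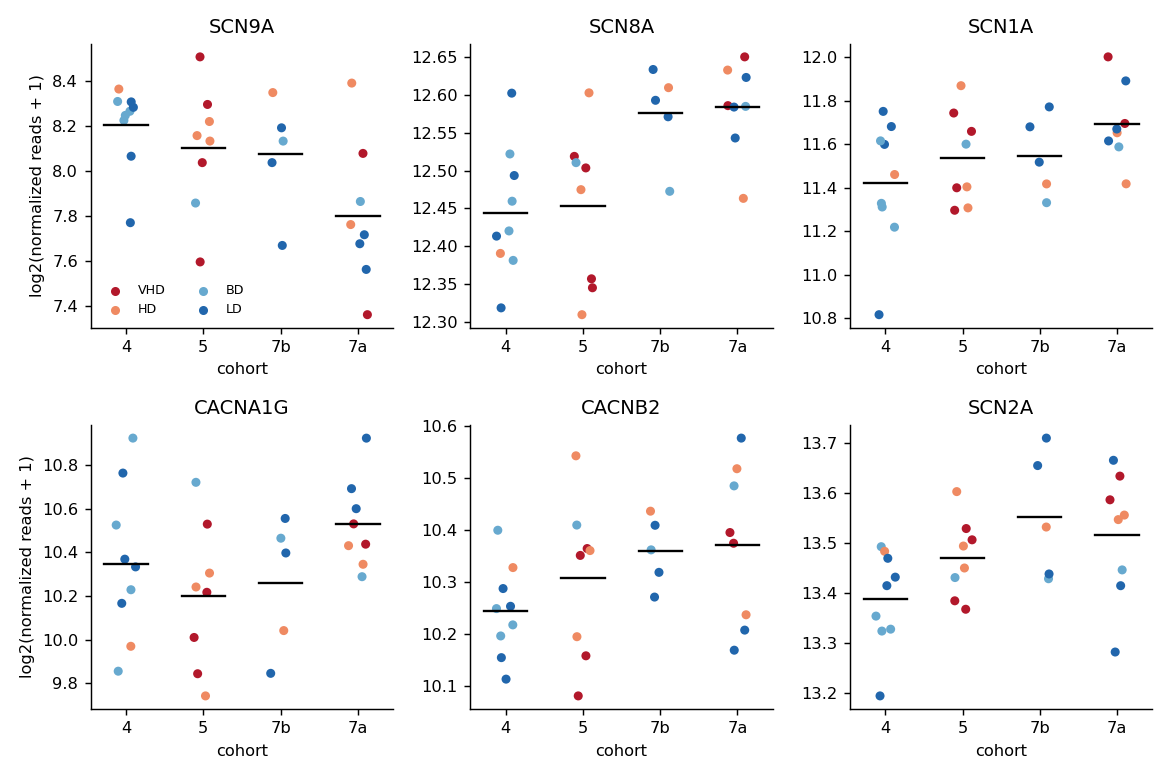
Values of 6 channel genes on the log2(normalized reads + 1) scale in cohorts 4, 5, 7b and 7a, 1 point per library coloured by category, with a line at the mean of each cohort. SCN9A is higher and SCN8A and SCN1A are lower in cohort 4 than in cohort 7a, with overlapping points.

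All 10 oligodendrocyte markers lay above 0 in cohort 4 against 7a, with a median of 0.77. An unadjusted p under 0.05 was reached by 9 of the 10, beside 9.15% of all genes. The summed oligodendrocyte level ran from 1241 to 6251 normalized reads per kb in cohort 4 and from 1188 to 2049 in cohort 7a. Of the 10 inhibitory neuron markers, 7 lay below 0, with a median of -0.12. The first component of 76 marker genes held 20.8% of their variance. All 10 oligodendrocyte and all 7 oligodendrocyte precursor markers had the same sign on it. Every other list held both signs, with 7 of 10 inhibitory neuron and 7 of 10 mural and fibroblast markers on the other side. With this component as a covariate, SCN1A was -0.03 and CACNA1G -0.17 in cohort 4 against 7a, while SCN8A was -0.12 and SCN9A 0.35. Then 3 of 26 members had an unadjusted p under 0.05, beside 675 of 12935 genes. Without that covariate 7 of 26 members and 1183 genes had such a p, so the count fell over all genes too. The part of any cell type in these changes was not tested. The test of whether the trend over categories differed between cohorts called no gene, and 0 of 26 members had an unadjusted p under 0.05 in it, beside 2.24% of all genes.

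Over the libraries the members varied along a few directions. The first principal component of the 26 genes, each scaled to equal variance, held 28.6% of the variance, with 10 genes loading on the side of SCN2A, NALCN, CACNB4 and SCN1A and 16 on the other, CACNB1, CACNA1A and CACNA1H among them. The 6 libraries at its low end all carried library numbers from 10 to 16, and had 4.39 to 9.12 M reads. The lowest, at -6.83, was LD replicate 3. The median score was 1.3 in VHD, 0.40 in HD, -2.53 in BD and -0.05 in LD animals; 4 of 7 BD libraries carried numbers from 9 to 16. The second component held 22.0%, with SCN8A, SCN1A, CACNA2D3 and CACNA1G toward its upper end and SCN9A, SCN3B and SCN3A toward its lower end. Its median was -1.45 in cohort 4 and 2.57 in cohort 7a. These components describe all 30 libraries, and only the 6 at the low end of the first share the depth range and neighbouring numbers given. The part of depth or library number in the components was not tested.

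**Figure D4:**
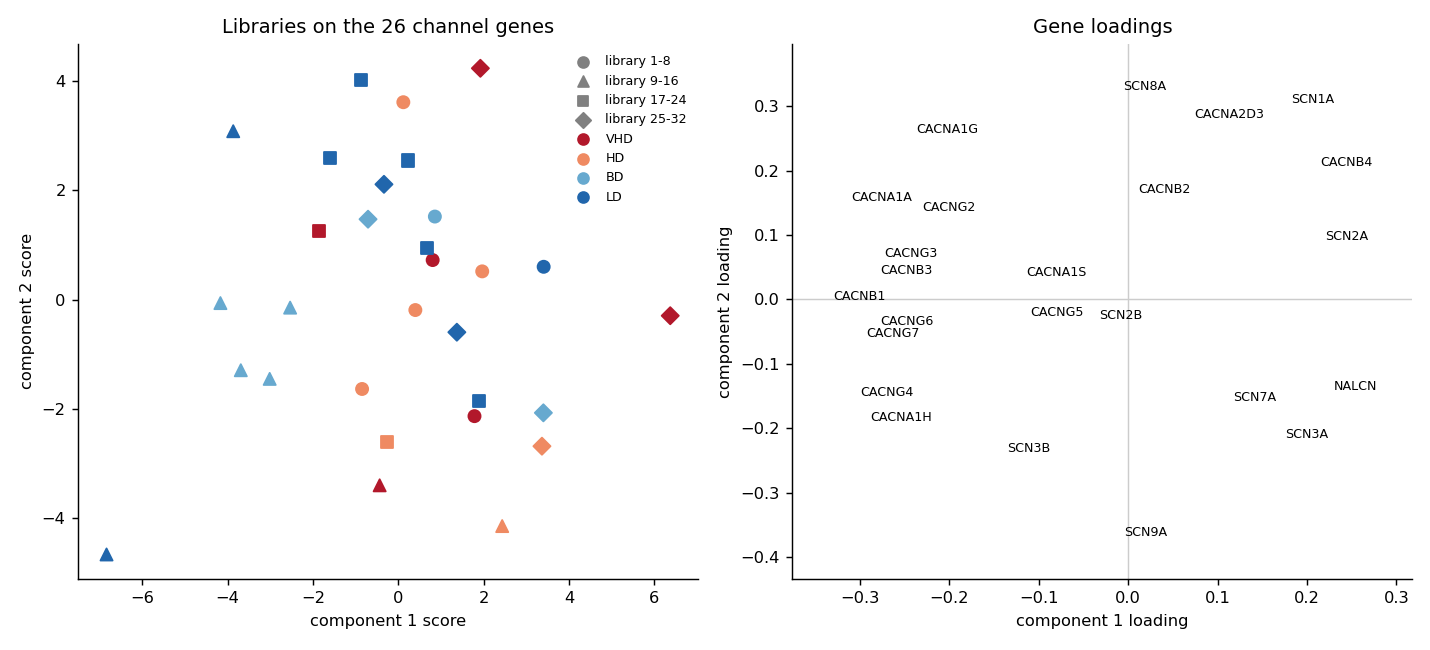
Left, the 30 libraries on the first and second principal components of the 26 channel genes, coloured by category, with shapes for the 4 sets of library numbers; right, the loadings of 24 of the genes. The 6 libraries at the low end of component 1 carry numbers from 10 to 16, and SCN9A and SCN8A lie at opposite ends of component 2.

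Exons were examined because channel genes use exons in place of one another. Exon usage was the difference between the log2 values of an exon and of its gene, each with 1 added. Coordinates are those of the deposited exon names, and the genome build is not given in the sources used here. Of 118342 exons tested in 11243 genes, 442 belonged to 24 of the 26 members. No exon was called in VHD against LD, in the trend over categories or over any cohort (0% of exons in each). At an unadjusted p under 0.05, 13 member exons (2.94%) passed in VHD against LD beside 3.66% of all exons, 17 (3.85%) in the trend beside 4.56%, and 16 (3.62%) over any cohort beside 4.35%.

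The smallest p-values in VHD against LD fell on SCN3A, the pore most abundant before birth, in 3 exons. The exon of 105 bases at chr2b:51884375-51884479 had 36.4, 48.0 and 59.7 normalized reads in VHD animals and 28.5, 32.5 and 57.1 in LD animals, and the groups overlapped. Its usage differed by 0.60 ± 0.15 (p = 0.000444), and by 0.22 ± 0.05 per step of the trend (p = 9.05e-05). The exons at chr2b:51941829-51942035 and chr2b:51905144-51905264 differed by -0.55 ± 0.15 (p = 0.000917) and -0.46 ± 0.14 (p = 0.00318) in VHD against LD. All 3 had an adjusted p of 0.9999. In the trend the next were 2 exons of NALCN, at chr13:82433210-82433358 (-0.15 ± 0.04 per step, p = 0.000995) and chr13:82784654-82784782 (0.16 ± 0.05 per step, p = 0.00448). Over any cohort they were exons of CACNA1H at chr16:1161710-1161810 (p = 0.00308), SCN3A at chr2b:51905144-51905264 (p = 0.0102) and NALCN at chr13:82586228-82586365 (p = 0.0105).

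Neighbouring exons of equal length were looked for among exons of 60 to 150 bases, at most 5000 bases apart and with at least 10 normalized reads in sum, and occurred in 2 members. CACNA1A had such a pair of 113 bases at chr19:13046437-13046549 and chr19:13050671-13050783. The first took 53.2% of the reads of both at the median, with a range of 47.5 to 64.9%. CACNB3 had a pair at chr12:47019864-47019986 and chr12:47020201-47020323, and the first took 43.8%, with a range of 38.5 to 50.5%. Shares this even also arise where both exons are always included. The pairs were not set against their flanking exons, and whether their exons replace one another was not tested. The share for CACNA1A averaged 55.0% ± 5.4 in VHD, 52.7% ± 3.1 in HD, 53.6% ± 2.0 in BD and 53.9% ± 3.3 in LD (SD, n = 6, 7, 7 and 10).

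In SCN8A the exon numbered 20 of 26 in table order split the libraries, an observation made after the values were seen. In human and mouse SCN8A has alternative exons at this place, of which a form favoured early in life ends the protein early, and the table lists 1 exon. It lay at chr12:49975454-49975576, and was set against the exons beside it, per base. The ratio to those flanking exons was 0.28 to 0.51 in 17 libraries and 0.80 to 1.07 in 13, and no library lay between. The 17 held 15 to 63 reads in the exon and the 13 held 55 to 184. The 17 comprised 2 VHD, 5 HD, 3 BD and 7 LD animals, and the 13 comprised 4 VHD, 2 HD, 4 BD and 3 LD animals, so every category stood on both sides. Every cohort and every set of library numbers did so too, with 6 of 9 cohort 4 and 5 of 8 cohort 7a animals among the 17. Its usage in VHD against LD differed by 0.12 ± 0.40 (p = 0.761). The matching exon of SCN2A had a ratio of 0.80 to 1.21 in the 30 libraries and that of SCN1A 0.63 to 1.52. That of SCN3A, on 13 to 74 reads, had 0.47 to 1.46, and that of SCN9A, on 1 to 23 reads, had 0.49 to 3.71, so both spread widely as well. The other SCN8A exon with known early and late forms, of 92 bases at chr12:49888020-49888111, had a median ratio of 0.40, with a range of 0.29 to 0.65, beside 1.87 for SCN2A, 1.36 for SCN1A and 1.23 for SCN3A.

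After this exon was seen, such gaps were looked for in all 358 member exons with a median of at least 20 reads, as the largest gap in the log2 ratio of exon to rest of gene with at least 4 libraries on both sides. The median gap was 0.09. The widest were those of a 63-base exon of CACNA2D3 at chr3:111031377-111031439 (0.71), of the SCN8A exon (0.55) and of a NALCN exon at chr13:82806159-82806305 (0.42). The next gap, in another exon, was 0.41, so that of the NALCN exon hardly stood apart. The CACNA2D3 exon held 0.42 to 1.90% of the reads of the gene in 18 libraries and 3.09 to 4.78% in 12. It rested on few reads, 2 to 42 in the 18 libraries and 23 to 79 in the 12. The 12 comprised 1 VHD, 3 HD, 3 BD and 5 LD animals. Usage of the CACNA2D3 exon in VHD against LD differed by -0.23 ± 0.53 (p = 0.664). The NALCN exon held 2.42 to 4.23% in 20 and 5.58 to 9.0% in 10. The 10 comprised 5 VHD, 2 HD, 1 BD and 2 LD animals, and 5 of them came from cohort 5. Its usage in VHD against LD differed by 0.65 ± 0.34 (p = 0.0639, adjusted p = 0.9999).

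NALCN was read unevenly along its length. Exons 39 to 42 in table order, from chr13:82784654 to chr13:82802578 and 536 bases in all, stood at 1501 normalized reads per kb at the median, against 368 for 30 exons of at least 80 bases among the first 36, and the ratio was 2.98 to 5.84 in the 30 libraries. The last listed exon, of 153 bases, had 12.0 per kb. The ratio had a median of 4.63 in VHD, 4.23 in HD, 4.01 in BD and 4.00 in LD animals, with overlapping ranges. Of 328 exons of at least 100 bases in 22 members, 3 exceeded 2.5 times the median exon of their gene, and all 3 were among these 4 NALCN exons, a stretch chosen after its values were seen. Short exons read higher per kb, at 1.60 times the gene's median exon for 37 exons under 70 bases, and at 1.15 times for 78 exons of 70 to 99 bases. The ratios of the 92-base exons to their longer flanks are not corrected for this.

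**Figure D5:**
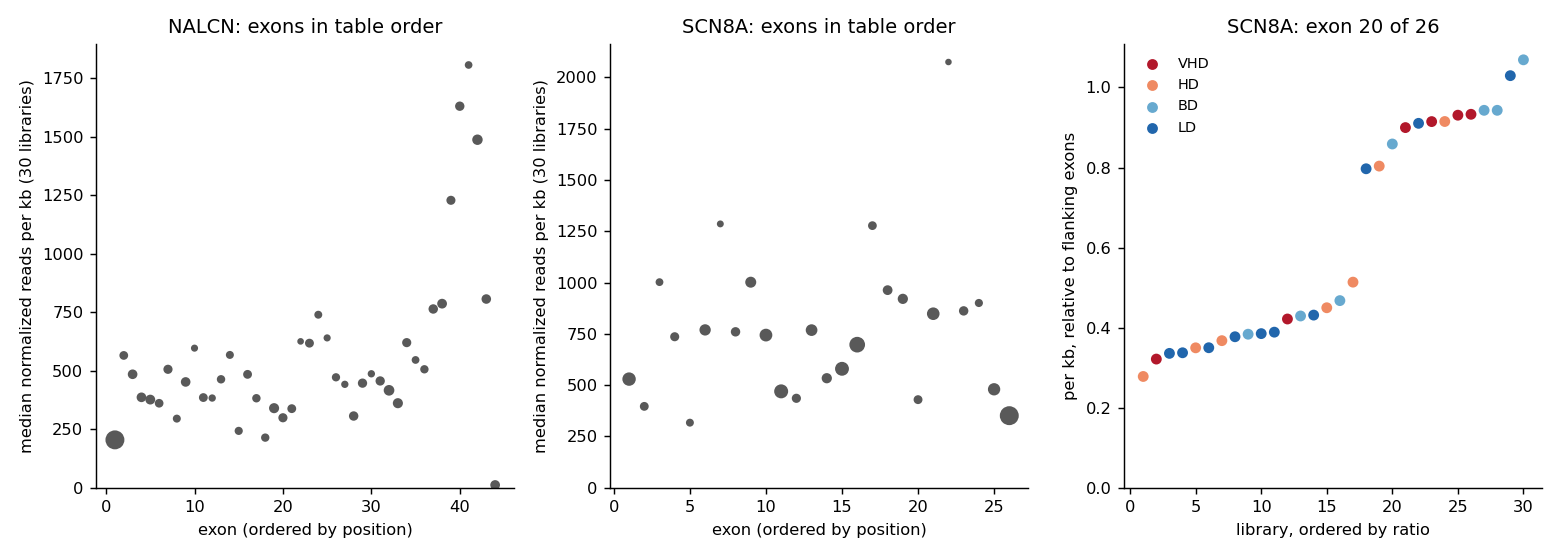
Left and centre, the median level of each exon of NALCN and SCN8A over the 30 libraries, in normalized reads per kb, with exons in table order and point size for exon length; right, the ratio of SCN8A exon 20 to its flanking exons in each library, ordered by that ratio and coloured by category. No library lies between 0.51 and 0.80, and colours of every category lie on both sides.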

How the data were processed

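RNA of 30 libraries was sequenced by the authors after rRNA depletion with a stranded kit, per the labels' protocols; CASAVA, FastQC, STAR 2.3.0e and edgeR are named per the submitters' processing notes, and 1 of 31 animals was left out by the authors. The deposited signal values are gene and exon reads that the authors scaled to a common upper quartile, which is the same in every library. Every deposited value was a whole multiple of what 1 read is worth (0.656 to 2.07), within 0.01 for 100% of values, so whole reads were recovered. How the counting treated strand and reads shared by similar channel genes is not given in the sources used here. Genes with 10 or more in at least 6 libraries were tested with limma 3.58.1 in R 4.3.3 on log2(value + 1), with category and cohort as terms and a mean trend; edgeR 4.0.16 on the recovered reads was an alternative, and called 0 genes in each comparison. Exons needed a value of 5 or more in at least 6 libraries. The fits were tested on simulated data. P-values measure the spread between single libraries of animals. Members, lists and tests were chosen with earlier results of these data known. Some members and partners, which stay in the fits and counts, are not reported here. The other symbols that fit the rule are named, with full values for members below an unadjusted p of 0.05 in a gene comparison, the highest per kb of each role and NALCN; partners are named below that p, at most 4 per list and comparison, and exons by adjusted p or, failing that, the 3 smallest p. Other channel genes were not analysed here. Alternatives were other pseudocounts, minimums, scaling, terms, weights, within-cohort fits and leaving out each library.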

Additional observations from a re-analysis of the deposited data

Results flagged for a closer look

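Of 208 groups of libraries (26 genes in 4 categories and 4 cohorts), 13 had a library far from the rest on the log2 scale, or 6.25%; chance flags about 1 in 20. LD replicate 3, the shallowest library, held 6 of the 13. It had 974 normalized reads of CACNA2D3, where the other LD libraries had 1404 to 1637 and the other cohort 4 libraries 1237 to 1480, so it was lowest in both groups. It was also lowest in LD for CACNB4 (2056) and SCN1A (1802), and highest in LD for CACNG4 (374) and CACNG7 (416). VHD replicate 4 was highest in VHD for CACNB1 (1712) and lowest in cohort 5 for SCN7A (136). BD replicate 7 was lowest in cohort 4 for CACNG2 (393) and lowest in BD for CACNG3 (568.3). SCN9A was lowest in HD replicate 4 (216) among HD libraries and in LD replicate 5 (217) among cohort 4 libraries. CACNA1S, at 1.48 in HD replicate 3, was lowest in cohort 7b.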

How the results depend on the processing

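No member was called in any comparison under any alternative run. The 13 member estimates with an unadjusted p under 0.05 kept their direction in all 518 alternative values over 41 settings, with a smallest adjusted p of 0.0822. These estimates were picked by that p in the same libraries, and 30 of the settings each left out only 1 library. A kept direction was therefore likely beforehand and is not separate support. Over all genes, HD against LD had 1 gene called without a cohort term, any cohort had 1 with the library sets, and cohort 4 against 7a had 26 without a category term and 15 with the library sets, where the fits as given had 0; leaving out single libraries gave 0 to 7 in cohort 4 against 7a (7 without BD replicate 1, 1 without LD replicate 9). The cause was not tested. Of the unadjusted counts, the 5 members in HD became 2 with the library sets, 3 without a cohort term and 3 without HD replicate 3; the 7 in cohort 4 against 7a became 3 with the marker component, 4 without HD replicate 4, 4 without LD replicate 2 and 3 without BD replicate 6; and in the trend the 1 became 6 without a cohort term, 4 with array weights, 0 with the marker component, and 0 to 4 without single libraries (0 without any 1 of 9, 4 without VHD replicate 4). Over any category the 1 became 4 with array weights, 0 with edgeR or no filter, and 0 to 3 without single libraries (0 without any 1 of 15, 3 without BD replicate 7). Over any cohort the 3 became 7 without a category term, 5 with the library sets, 8 with array weights and 5 without LD replicate 9. The 0 in VHD became 3 without a cohort term, 1 with the library sets or array weights and 1 without any 1 of 6 libraries; the 0 in BD became 1 with the library sets, 3 with array weights and 3 without LD replicate 3. The 453 genes in VHD became 813 without VHD replicate 4 and 1046 with array weights, and the 394 in BD 720 without BD replicate 7 and 1376 with array weights. The 1623 in HD became 596 with the library sets. The 1183 in cohort 4 against 7a became 675 with the marker component. The exon count in the trend, 17, became 34 without a cohort term, and that in VHD 23 where it was 13. Leaving out each cohort 7b library from the exon fits was chosen after seeing the data, and called no exon. Depth limits CACNA1S, CACNG5 and CACNG6, with medians of 7, 10 and 29 reads per library. No paired analysis was possible because replicate numbers follow accession order and pair no animals.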
